A study of Arabidopsis thaliana with 12 samples.

Results

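The malectin-like LRR receptor kinase genes of the LRR-I subfamily were described in Arabidopsis thaliana seedlings in which SNF4 was silenced. They were taken from a list of 42 loci, of which 33 had a probe set on the array that named a single gene, among 13355 genes tested in all. Proteins of this family sit in the plasma membrane. Outside the cell they carry a malectin-like domain, related to animal malectin, a protein that binds sugars, followed by leucine-rich repeats (LRRs). Inside the cell they carry a protein kinase domain. The best known member, FRK1, takes its name from induction by the flagellin peptide flg22 and is widely used as a marker of pattern-triggered immunity, the defence started by surface receptors. IOS1, another member, is named for its role in susceptibility to oomycetes.

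The 4 groups of 3 arrays each were amiR-SNF4 seedlings grown in darkness, wild type grown in darkness, amiR-SNF4 grown in light and wild type grown in light. Both genotypes were in the Col-0 background. The name amiR-SNF4 stands for an artificial microRNA directed against SNF4, the activating subunit of SnRK1, the kinase that responds to low energy in plants. All seedlings, wild type included, grew with 5 µM β-estradiol, a common inducer of plant transgenes, and 0.5% sucrose at 22 °C. Their age was 5 days after germination. Light meant cycles of 8 h light and 16 h dark. Collection was given as 4 h into the light period for all 4 groups, those grown in darkness included. The sample labels of the light-grown groups also gave 7 days after sowing, and the light intensity was 120 in the sample labels but 400 in the series text. The promoter of the transgene and the number of independent lines are not given in the sources used here. No silenced line without the inducer and no second transgenic line was among the samples, so loss of SNF4 and any other effect of the line cannot be told apart. No probe set was annotated to SNF4, and the degree of silencing was not analysed here.

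RNA of whole seedlings was hybridized to Affymetrix ATH1 arrays, which give 1 intensity per probe set. Array medians of the deposited intensities ran from 39.4 to 99.5, a 2.52-fold range, and the arrays were therefore quantile-normalized. The medians were 39.4 to 62.5 for dark arrays and 61.2 to 99.5 for light arrays, and normalization removes this difference between growth conditions. Levels below are log2(normalized intensity + 16), so the lowest possible level is 4. Fold changes are on this scale and understate the changes of dim genes. Within a group, pairs of arrays correlated at 0.961 or higher over all genes, and between groups at 0.930 or lower. The titles call the arrays biological replicates, but no label says that they came from separate cultures, so the p-values cover no more than the spread among these arrays, which may be technical. The 12 arrays entered 1 limma fit, and a gene counted as called where its p, adjusted over all 13355 genes by the Benjamini-Hochberg method, was under 0.05. Each fold change carries its standard error from that fit, with 3 arrays per group. In whole-seedling RNA, fewer cells of a type and less RNA per cell cannot be told apart.

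Of the 9 loci not measured, 7 had no probe set named in the annotation used. They were FRK1, IOS1, AT1G51870, AT5G16900, the root hair genes RHS6 and RHS16, and MEE39, named for arrest of the embryo in maternal mutants. The other 2, AT2G14440 and AT2G14510, shared a probe set and were left out. The annotation left 8730 of the 22746 non-control probe sets unnamed. Whether any of those reads an unmeasured locus was not tested. All listed loci with a gene symbol in the gene table were among the 7, so the measured members are not an arbitrary sample of the list. All 33 measured members were read by probe sets of the type designed for a single transcript, and each had a single probe set. In the gene order of the TAIR10.1 annotation, 32 of the 42 loci lay in 7 runs of near neighbours. The longest run held 12 of them among 15 consecutive protein-coding genes of chromosome 1, from AT1G51790 to AT1G51910, with 9 measured. Runs of 4 loci with no other protein-coding gene between them lay on chromosome 2 (AT2G28960 to AT2G29000) and chromosome 5 (AT5G59650 to AT5G59680).

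Many of the genes were dim. A gene was called dim in a group when its mean fell among the lowest 25% of all genes there, below 4.86 to 4.88. Of the 33 members, 14 were dim in dark amiR-SNF4 and 13 in dark wild type, and 18 were dim in light amiR-SNF4 and 14 in light wild type. The 10 members dim in all 4 groups were called in none of the 5 contrasts tested. They include AT2G19210 and AT2G19230, neighbours of FRK1, whose group means all lay between 4.09 and 4.23, at the floor of the scale. AT3G46370, near MEE39, was at 4.06 to 4.11 in every group. By their mean over all 12 arrays, 17 of the 33 members lay above the lowest 25%, and these are termed the brighter members below. No low-value filter was used in the fit.

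In darkness, silencing changed few of these genes. Of the 33 members 3 rose and 1 fell, 4 in all (12.1%), where 30.8% of all genes were called. By direction, 14.3% of all genes rose and 16.5% fell. The members' median log2 fold change was -0.0013 and that of all genes -0.03. The 3 arrays of amiR-SNF4 did not overlap with those of wild type for 4 members (3 higher, 1 lower), against 37.0% of all genes (17.2% higher, 19.9% lower). The lower one, AT3G46400 (-0.42 ± 0.20), was not called, and AT5G48740, which was, had overlapping arrays. By either count the share of members was below that of all genes. Many members were dim, however. Of the 17 brighter members, 3 (17.65%) were called in darkness, all of them higher. The matching share of all genes was not counted, and the part of low signal in the low share was not tested.

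The largest rise in darkness was that of AT1G51890, in the chromosome 1 run. Its levels were 9.63, 8.82 and 8.90 in dark amiR-SNF4 and 6.85, 6.62 and 6.98 in dark wild type. All 3 silenced arrays lay above all wild-type arrays. The rise was 4.93-fold (log2 fold change 2.30 ± 0.23, SE, limma adjusted p = 5.30e-06).

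AT1G51790, the first gene of that run and the neighbour of IOS1, rose 2.17-fold (1.12 ± 0.22, limma adjusted p = 0.00138). Its levels were 7.74, 7.11 and 7.38 in dark amiR-SNF4 and 6.0, 6.22 and 6.66 in dark wild type, again without overlap. AT2G28960, the first gene of the run of 4 on chromosome 2, rose 2.15-fold (1.10 ± 0.26, limma adjusted p = 0.00497). Its levels were 7.79, 6.59 and 7.46 in dark amiR-SNF4 and 6.10, 6.06 and 6.37 in dark wild type. The groups did not overlap, but the silenced arrays differed among themselves by more than the wild-type arrays did. Its 3 neighbours in the run were between -0.29 and 0.24 and were not called.

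The fall was that of AT5G48740, a gene outside the runs, at -0.58 ± 0.19 (limma adjusted p = 0.0321). Its levels were 4.30, 4.80 and 4.23 in dark amiR-SNF4, where it was dim, and 5.15, 4.79 and 5.13 in dark wild type. One silenced array lay just above the lowest wild-type array, so the groups overlapped. This call was lost without normalization (adjusted p = 0.215), with hybridization control scaling (0.273) and with cyclic loess (0.0626). It was also lost without dark amiR-SNF4 replicate 1 (0.0907) or 3 (0.116) and without dark wild-type replicate 1 (0.0935) or 3 (0.0861). With these settings the value stayed negative. The 29 members not called in darkness ran from -0.56 to 0.54, with adjusted p of 0.0789 or higher.

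In light, 7 of 33 members were called (21.2%), against 19.1% of all genes. Of the members 6 rose and 1 fell, where 9.14% of all genes rose and 9.94% fell. The median log2 fold change was -0.02 for the members and -0.03 for all genes. The arrays did not overlap for 12 members (8 higher, 4 lower; 36.4%), against 40.4% of all genes (17.6% higher, 22.8% lower), so the shares of members called and of members without overlap were close to those of all genes. Of the 17 brighter members, 6 (35.29%) were called in light, 5 higher and 1 lower. The matching share of all genes was not counted. The count of 7 was 4 (3 higher, 1 lower) without light amiR-SNF4 replicate 3, without light wild-type replicate 1, and without light wild-type replicate 2.

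AT1G51890 and AT1G51790 were called in light as in darkness, and no other member was called in both. AT1G51890 had 7.39, 7.40 and 8.02 in light amiR-SNF4 and 5.94, 5.60 and 5.80 in light wild type. It was 3.53-fold higher with silencing (1.82 ± 0.23, limma adjusted p = 8.58e-05). AT1G51790 had 7.43, 7.20 and 7.39 in light amiR-SNF4 and 5.75, 5.90 and 6.37 in light wild type. It was 2.52-fold higher (1.33 ± 0.22, limma adjusted p = 0.000687). For both genes the silenced arrays all lay above the wild-type arrays.

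Of the other genes of the chromosome 1 run, AT1G51850 and AT1G51860 rose in light and AT1G51830 fell. AT1G51850 had 6.41, 6.72 and 6.98 in light amiR-SNF4 and 5.64, 5.75 and 6.08 in light wild type, 1.84-fold higher (0.88 ± 0.22, limma adjusted p = 0.0136). AT1G51860, the next gene along, had 5.88, 6.13 and 6.66 in light amiR-SNF4 and 5.35, 5.43 and 5.54 in light wild type, 1.72-fold higher (0.78 ± 0.24, limma adjusted p = 0.0403). Neither gene's groups overlapped. AT1G51830 had 5.01, 4.99 and 5.07 in light amiR-SNF4 and 5.87, 6.21 and 6.34 in light wild type, and fell by 1.12 ± 0.18 on the log2 scale (limma adjusted p = 0.000625). Its 3 silenced arrays were nearly equal and lay far below the wild-type arrays.

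Both calls were lost in some alternatives, though the log2 fold changes stayed positive, at 0.54 or higher for AT1G51850 and 0.43 or higher for AT1G51860. The call of AT1G51850 was lost without normalization (adjusted p = 0.0574), without light amiR-SNF4 replicate 3 (0.0671), and without light wild-type replicate 1 (0.0593) or 2 (0.0512). That of AT1G51860 was lost without normalization (0.137), with an added constant of 1 (0.0541) or 64 (0.0809), and with the replicate number as a block (0.0510). Leaving out single arrays also ended it, at adjusted p of 0.0793 and 0.177 without light amiR-SNF4 replicates 2 and 3, 0.114, 0.105 and 0.0759 without light wild-type replicates 1, 2 and 3, and 0.0502 without dark amiR-SNF4 replicate 3.

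On chromosome 5, AT5G59670 and AT5G59680 rose in light, the last genes of the run of 4. AT5G59670 had 5.27, 4.93 and 5.28 in light amiR-SNF4 and 4.35, 4.09 and 4.04 in light wild type, 2.01-fold higher (1.01 ± 0.16, limma adjusted p = 0.000669). It was dim in the 3 other groups, and its fold depends on the added constant: the log2 fold change was 3.07 with a constant of 1 and 0.35 with 64, called with both. AT5G59680 had 6.81, 6.67 and 6.74 in light amiR-SNF4 and 5.65, 5.81 and 6.11 in light wild type, 1.84-fold higher (0.88 ± 0.24, limma adjusted p = 0.0195). The groups of each gene did not overlap. The call of AT5G59680 was lost without normalization (adjusted p = 0.0938) and with a constant of 64 (0.0615). It was also lost without light amiR-SNF4 replicate 1 (0.0628) or 3 (0.0576) and without light wild-type replicate 1 (0.0791) or 2 (0.0655). Their neighbours AT5G59650 and AT5G59660 were at -0.12 ± 0.21 and -0.01 ± 0.22.

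The 26 members not called in light ran from -0.49 to 0.38, with adjusted p of 0.0636 or higher. Among them were 5 whose arrays did not overlap: AT1G07560 (-0.49 ± 0.21), AT2G28970 (-0.38 ± 0.13) and AT1G51805 (-0.33 ± 0.17) were on the lower side, AT1G51910 (0.38 ± 0.17) and AT4G29450 (0.23 ± 0.19) on the higher. In all, 9 of the 33 members (27.3%) were called in darkness or in light, against 36.2% of all genes. Of these 9, 5 were among the 9 measured genes of the chromosome 1 run and 4 among the 24 measured members outside it, a difference that was not tested. Of the 13 members dim in no group, 7 were called in darkness or in light.

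**Figure D1:**
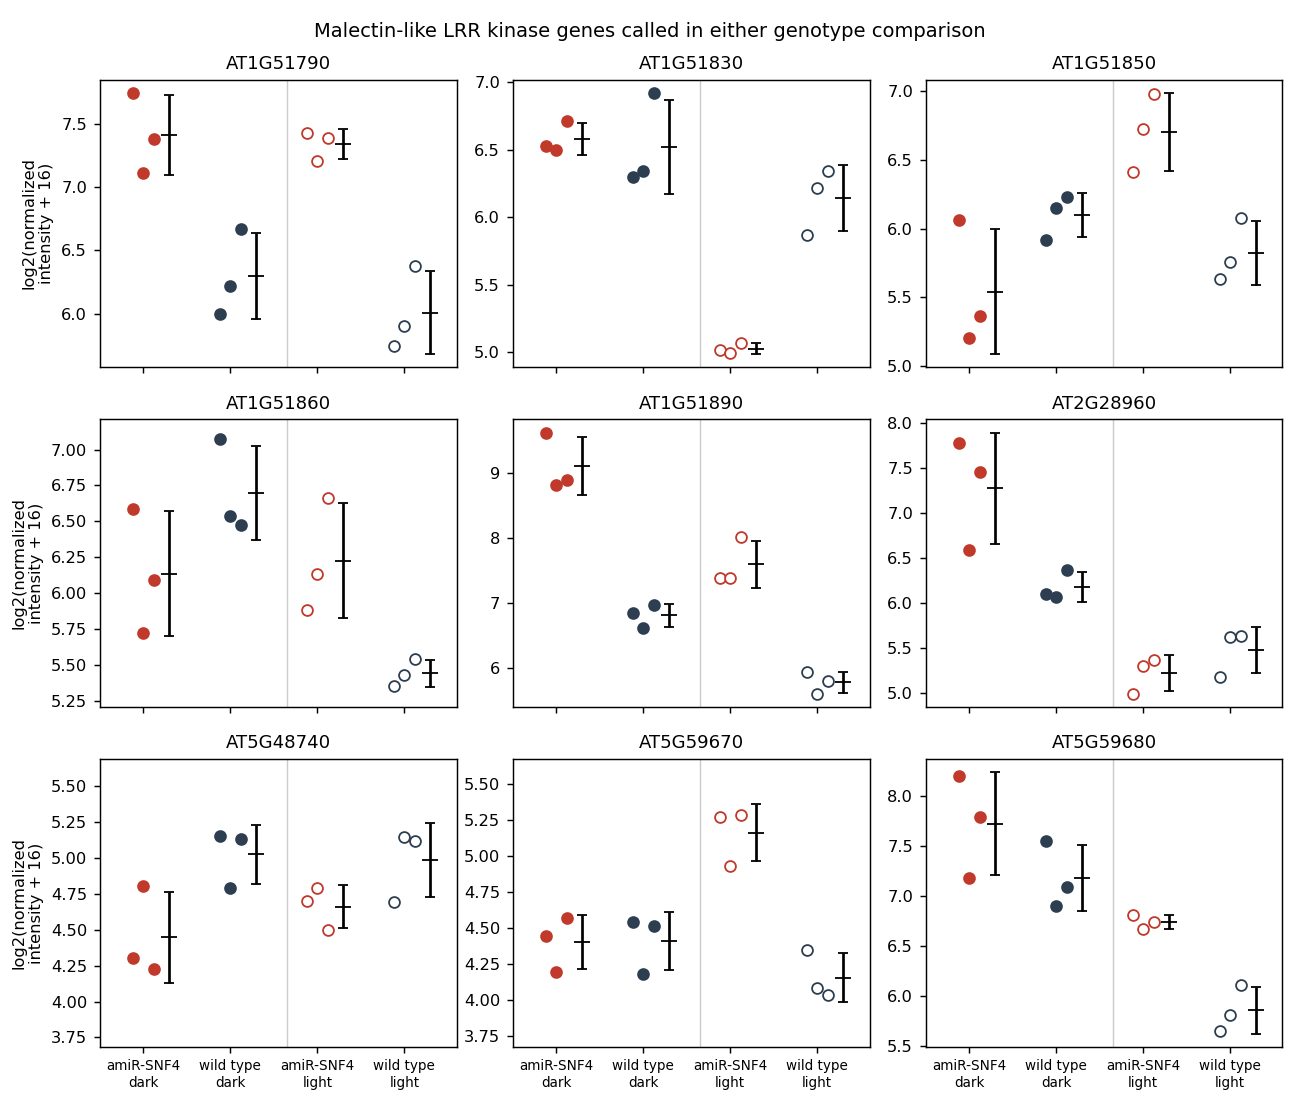
Levels, as log2(normalized intensity + 16), of the 9 members called in either genotype comparison, with 1 panel per gene on its own vertical axis; points are single arrays (filled for darkness, open for light, red for amiR-SNF4, dark blue for wild type) and bars are mean ± SD of 3 arrays. AT1G51790 and AT1G51890 are higher in amiR-SNF4 in both conditions, AT1G51830 is low in light amiR-SNF4 alone, and AT5G59670 is high there alone.

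**Figure D2:**
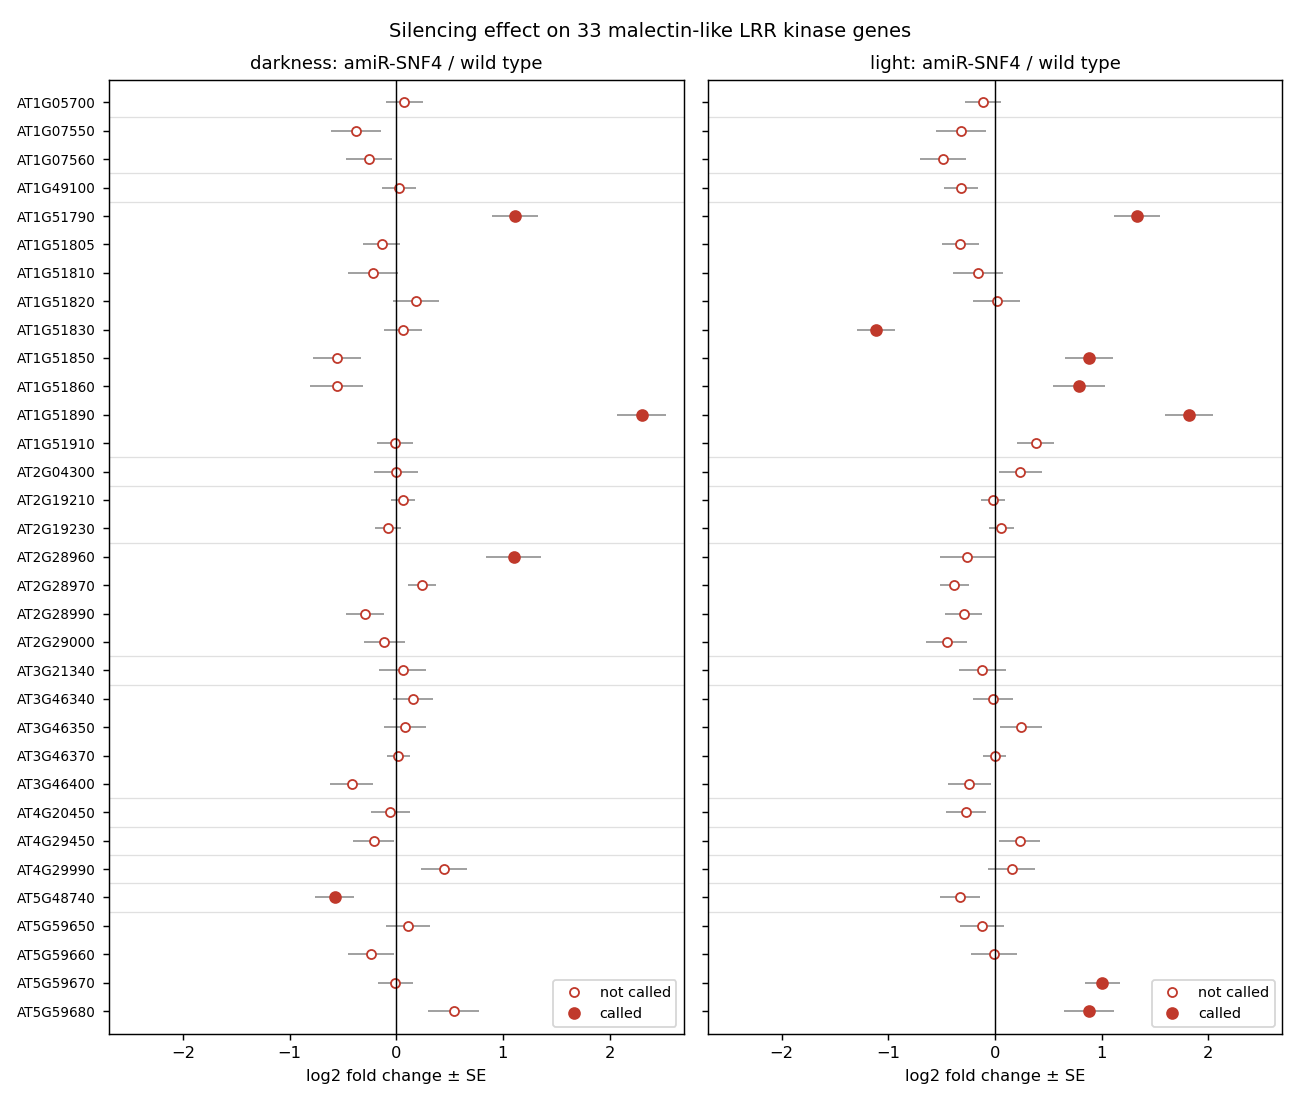
Log2 fold change of amiR-SNF4 over wild type in darkness (left) and in light (right) for the 33 members, 1 row per gene in locus order with grey lines between runs; bars are standard errors of the limma fit, and filled points have an adjusted p under 0.05. In darkness 4 points are filled and in light 7, with 5 of these 7 among the 9 genes from AT1G51790 to AT1G51910.

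Whether the silencing effect differed between growth conditions was tested by the difference of both effects, light minus darkness. It was called for 5 of 33 members (15.2%), 3 higher and 2 lower, where 7.98% of all genes were called, 4.07% higher and 3.92% lower. The median difference was -0.02 for the members and -0.01 for all genes. The 2 genes called in both conditions were not among them: the difference was -0.48 ± 0.32 for AT1G51890 (limma adjusted p = 0.459) and 0.22 ± 0.31 for AT1G51790 (0.778). The count fell to 3 when any of 6 arrays was left out: dark amiR-SNF4 replicate 3, dark wild-type replicate 1, light amiR-SNF4 replicates 2 and 3, and light wild-type replicates 2 and 3. It was also 3 with an added constant of 1. Without normalization it was 1, on the lower side, where 0.659% of all genes were higher and 1.42% lower.

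In the chromosome 1 run the 3 genes with a called difference did not move together. For AT1G51830 the difference was -1.18 ± 0.25 (limma adjusted p = 0.0116), called under all 26 alternatives tried. Its dark levels were 6.53, 6.50 and 6.72 in amiR-SNF4 and 6.30, 6.34 and 6.92 in wild type, overlapping, with an effect of 0.06 ± 0.18 there. For AT1G51850 the difference was 1.44 ± 0.32 (limma adjusted p = 0.0132), lost without normalization (0.111).

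AT1G51850 had 6.06, 5.21 and 5.36 in dark amiR-SNF4 and 5.92, 6.15 and 6.23 in dark wild type, an effect of -0.56 ± 0.22 that was not called. For AT1G51860 the difference was 1.34 ± 0.35 (limma adjusted p = 0.0315). Its dark levels were 6.59, 5.73 and 6.09 in amiR-SNF4 and 7.07, 6.54 and 6.47 in wild type, and the dark effect of -0.56 ± 0.24 was not called either. These adjacent genes therefore had nearly the same pair of effects, lower in darkness without a call and higher in light. Whether the probe set of either gene also reads RNA of the other was not tested. The difference for AT1G51860 lost its call without normalization (0.198), with a constant of 1 (0.0616) and in 8 fits that left out a single array. Those were the fits without dark amiR-SNF4 replicate 2 (0.0636) or 3 (0.0612), dark wild-type replicate 1 (0.0658), light amiR-SNF4 replicate 2 (0.0585) or 3 (0.0768), and light wild-type replicate 1 (0.0742), 2 (0.0718) or 3 (0.0568).

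Outside that run, AT2G28960 had a difference of -1.36 ± 0.36 (limma adjusted p = 0.0371). Its light levels were 4.99, 5.30 and 5.36 in amiR-SNF4 and 5.18, 5.62 and 5.64 in wild type, which overlapped. This call was lost in 13 of 26 alternatives. They include the fits without normalization (adjusted p = 0.0840) and with constants of 1 (0.0848) and 64 (0.0528), and those without dark amiR-SNF4 replicate 1 (0.0630) or 3 (0.0806) and dark wild-type replicate 1 (0.0693) or 2 (0.0818). It was also lost without light amiR-SNF4 replicate 1 (0.0961), 2 (0.0684) or 3 (0.0578) and light wild-type replicate 2 (0.0923) or 3 (0.0902). AT5G59670 had a difference of 1.02 ± 0.23 (limma adjusted p = 0.0157), with 4.45, 4.20 and 4.57 in dark amiR-SNF4 and 4.54, 4.18 and 4.52 in dark wild type, both near the floor. It was not called with a constant of 1 (0.0535) or without normalization (0.0539).

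**Figure D3:**
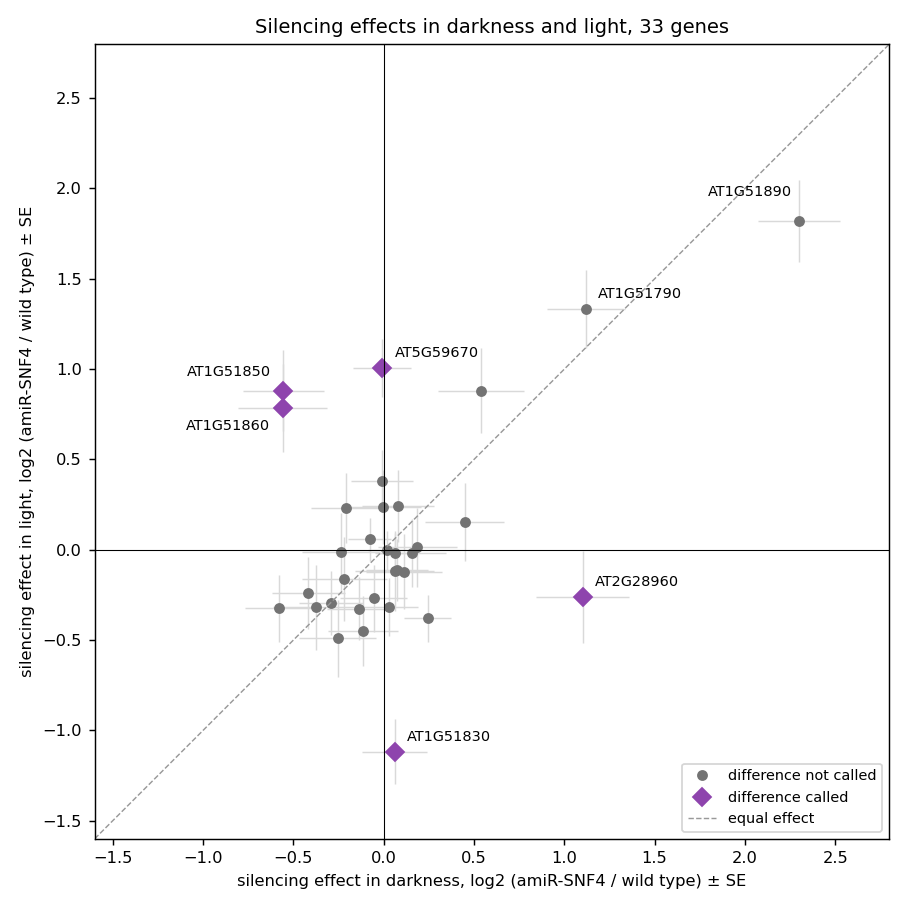
Silencing effect in light (vertical) against that in darkness (horizontal), both as log2 fold change of amiR-SNF4 over wild type with standard errors, for the 33 members; purple diamonds are the 5 genes whose difference was called and the dashed line marks equal effects. AT1G51890 and AT1G51790 lie at the upper right near the dashed line, AT1G51850 and AT1G51860 lie side by side at the upper left, and AT1G51830 and AT2G28960 lie below the line.

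Light was then compared with darkness within each genotype. In amiR-SNF4, 12 of 33 members were called (36.4%), 3 higher and 9 lower in light, where 33.6% of all genes were called (17.7% higher, 15.9% lower). In wild type, 5 were called (15.2%), 1 higher and 4 lower, where 34.9% of all genes were called (18.5% higher, 16.4% lower). Of the 17 brighter members, 10 (58.82%) were called in amiR-SNF4 and 5 (29.41%) in wild type. The matching shares of all genes were not counted. Light and dark arrays did not overlap for 14 members in amiR-SNF4 (5 higher, 9 lower), against 45.6% of all genes (23.7% higher, 21.9% lower). In wild type they did not overlap for 11 (3 higher, 8 lower), against 46.0% (23.6% higher, 22.4% lower). The counts by direction moved with the scaling, both for all genes and for the members. Scaling to the hybridization controls moved the median of all genes by 0.59 at most. In amiR-SNF4 9 members were then higher and 4 lower, where 50.9% of all genes were higher and 3.14% lower. In wild type 3 were higher and 1 lower, where 46.8% of all genes were higher and 3.23% lower. Without normalization 3 members were higher and 4 lower in amiR-SNF4 (18.8% and 5.59% of all genes), and 1 was higher and 2 lower in wild type (27.3% and 4.63% of all genes). The values below are relative to the bulk of genes.

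AT1G51805 had the largest rise in light in both genotypes, and its silencing effect was not called in either condition. In amiR-SNF4 it had 7.04, 7.03 and 7.25 in light and 5.04, 5.12 and 4.71 in darkness, 4.45-fold higher (2.15 ± 0.17, limma adjusted p = 1.78e-06). In wild type it had 7.33, 7.45 and 7.53 in light and 5.09, 4.77 and 5.42 in darkness, 5.07-fold higher (2.34 ± 0.17, limma adjusted p = 1.00e-06). Light and dark arrays were far apart, and both calls held in all 27 alternatives.

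The other two rises with light in amiR-SNF4 were those of AT1G51850 (1.16 ± 0.22, limma adjusted p = 0.00138) and AT5G59670 (0.76 ± 0.16, adjusted p = 0.00278). In wild type the same genes were at -0.28 ± 0.22 and -0.26 ± 0.16 and were not called. The largest falls with light in amiR-SNF4 were those of AT2G28960 (-2.06 ± 0.26), AT1G51830 (-1.56 ± 0.18), AT1G51890 (-1.51 ± 0.23), AT5G59680 (-0.98 ± 0.24) and AT2G28970 (-0.95 ± 0.13), with limma adjusted p between 2.90e-05 and 0.00639. The fall of AT5G59680 lost its call with hybridization control scaling (adjusted p = 0.788) and without normalization (0.133). In wild type the 4 falls were those of AT5G59680 (-1.32 ± 0.24), AT1G51860 (-1.25 ± 0.24), AT1G51890 (-1.03 ± 0.23) and AT2G28990 (-0.56 ± 0.18).

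The wild-type fall of AT5G59680 kept its call in all 27 alternatives, and the other 3 did not. With hybridization control scaling AT1G51860 (adjusted p = 0.0596), AT1G51890 (0.207) and AT2G28990 (0.765) were not called, and the last 2 were also not called without normalization (0.0770 and 0.225). AT2G28990 also lost its call without dark wild-type replicate 2 (0.0766) or 3 (0.0624) and without light wild-type replicate 2 (0.131). The wild-type count of 5 was 8 (2 higher, 6 lower) without dark amiR-SNF4 replicate 1, an array of neither group compared. Of the 13 members called in light against darkness in either genotype, 4 were called in both: AT1G51805, AT1G51890, AT2G28990 and AT5G59680. The matching shares of all genes were not counted, so whether these counts are high or low is not known.

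In the run of 4 on chromosome 2, 3 genes fell with light in amiR-SNF4, with AT2G28990 at -0.56 ± 0.18 beside AT2G28960 and AT2G28970, while the dim AT2G29000 was at -0.01 ± 0.19. Other falls in amiR-SNF4 were called for AT4G29990 (-0.73 ± 0.22), AT1G51820 (-0.69 ± 0.22) and AT1G05700 (-0.54 ± 0.17). None of these last 4 calls held with hybridization control scaling or without normalization, and AT1G05700 was at 0.24 with the control scaling. Each was also lost without dark amiR-SNF4 replicate 1, with adjusted p of 0.0886 for AT2G28990, 0.0811 for AT4G29990, 0.103 for AT1G51820 and 0.108 for AT1G05700. AT2G28990 and AT4G29990 lost their calls without dark amiR-SNF4 replicate 3 (0.0660 and 0.0584) or light amiR-SNF4 replicate 3 (0.108 and 0.0779). AT1G51820 lost its call without light amiR-SNF4 replicate 1 (0.115) or 2 (0.0841). AT1G05700 lost its call without any of the light amiR-SNF4 arrays (0.0606, 0.0810 and 0.0651) and without dark amiR-SNF4 replicate 2 (0.0616). None of the runs near FRK1 and MEE39 nor the pair AT1G07550 and AT1G07560 held a called gene in any of the 5 contrasts.

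**Figure D4:**
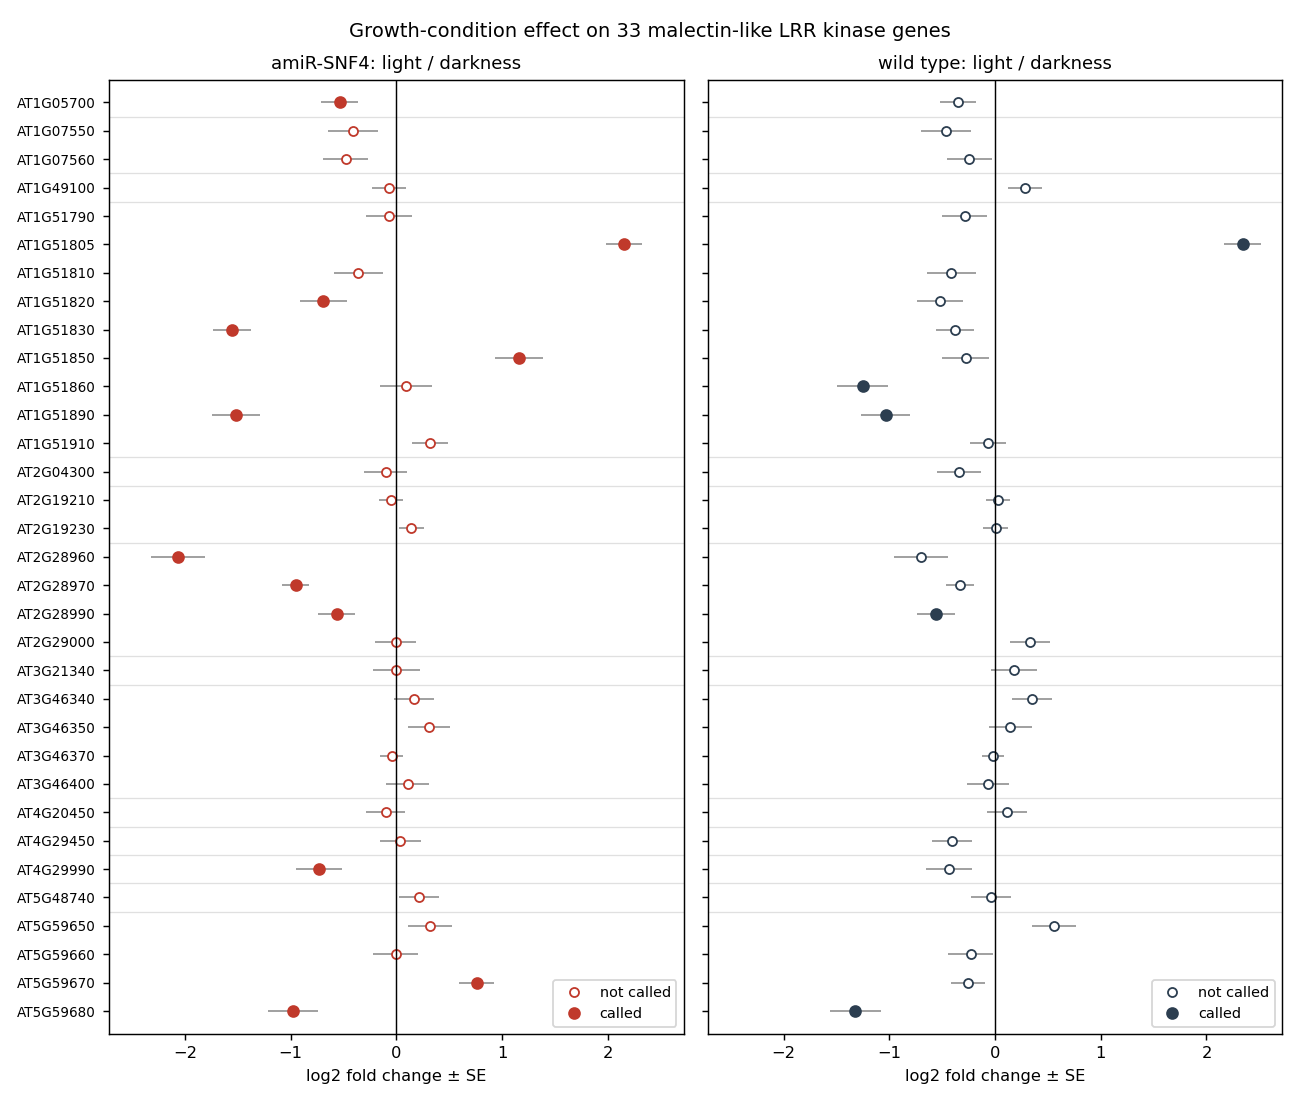
Log2 fold change of light over darkness in amiR-SNF4 (left, red) and in wild type (right, dark blue) for the 33 members in locus order; bars are standard errors of the limma fit, and filled points have an adjusted p under 0.05. AT1G51805 stands at the right in both panels, and 9 genes in amiR-SNF4 and 4 in wild type are filled on the lower side.

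The same silencing comparisons were read for other receptor kinase families with a malectin-like or malectin domain. The CrRLK1L kinases, which lack LRRs and include sensors of the cell wall, had 12 of 17 listed genes measured. In darkness 2 of the 12 rose and 2 fell, with a median log2 fold change of -0.23, and in light 3 rose and 1 fell, with a median of -0.03. Of all genes, 14.3% rose and 16.5% fell in darkness, and 9.14% rose and 9.94% fell in light. The median of all genes was -0.03 in both conditions. THE1, a kinase that responds to defects in cellulose, fell by 1.74 ± 0.15 in darkness and by 1.24 ± 0.15 in light (limma adjusted p = 1.09e-06 and 4.59e-05). FER, a receptor of RALF peptides, fell by 1.09 ± 0.21 in darkness (limma adjusted p = 0.00163) and was at -0.64 ± 0.21 in light (0.0559). Both kinases sit in the same membrane as the malectin-like LRR kinases.

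The CrRLK1L genes AT5G39020 (1.37 ± 0.20), AT2G23200 (1.26 ± 0.18) and AT5G39030 (0.92 ± 0.21) rose in light. AT2G23200 (0.57 ± 0.18, limma adjusted p = 0.0310) and AT2G39360 (0.46 ± 0.15, 0.0311) were the rises in darkness. Both dark calls were lost without dark amiR-SNF4 replicate 1 (adjusted p = 0.117 and 0.111) or dark wild-type replicate 2 (0.116 and 0.0991). That of AT2G39360 was also lost without dark wild-type replicate 3 (0.0861). The values of both genes stayed positive in these fits.

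Of the LRR-VIII-2 kinases, which carry LRRs and a malectin domain, 5 of 13 listed genes were measured. In darkness 2 rose and 1 fell, with a median of 0.20. AT1G56145 rose by 1.07 ± 0.16 and AT1G53430 by 0.85 ± 0.15, while AT1G07650 fell by 1.00 ± 0.16 (limma adjusted p = 0.000199, 0.000828 and 0.000328). In light the median was -0.05, where that of all genes was -0.03, with 9.14% of all genes higher and 9.94% lower. AT1G56145 was the 1 gene of this list called there, at 0.53 ± 0.16 (limma adjusted p = 0.0360). That call was lost whichever of the 6 light arrays was left out, with adjusted p of 0.0820, 0.120 and 0.0713 without amiR-SNF4 replicates 1, 2 and 3 and 0.0586, 0.144 and 0.0661 without wild-type replicates 1, 2 and 3. None of the 39 listed cysteine-rich receptor kinases was analysed here.

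The flagellin and pattern-triggered signalling genes, among which FRK1 is the usual readout, had 8 of 41 listed genes measured. In darkness 5 of 8 rose and none fell, with a median log2 fold change of 1.22, and in light 5 rose and 1 fell, with a median of 0.97. Of all genes, 14.3% rose and 16.5% fell in darkness, and 9.14% rose and 9.94% fell in light, with a median of -0.03 in both. WRKY6, a transcription factor gene linked to senescence and defence, rose by 2.87 ± 0.19 in darkness and 1.86 ± 0.19 in light (limma adjusted p = 1.02e-07 and 1.21e-05). WRKY53, a related factor gene, was at 0.21 ± 0.16 in darkness and rose by 2.69 ± 0.16 in light (limma adjusted p = 0.379 and 1.40e-07).

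WRKY22, a transcription factor placed upstream of FRK1, was at 0.09 ± 0.14 in darkness and fell by 0.62 ± 0.14 in light (limma adjusted p = 0.00552), a call lost without normalization (0.0668) and with hybridization control scaling (0.125). EFR, the receptor of the bacterial protein EF-Tu, was at 0.70 ± 0.25 in darkness (0.0501) and rose by 1.33 ± 0.25 in light (0.00220), where a constant of 1 ended the call (0.0812). BIK1, a cytoplasmic kinase that acts just below surface receptors, rose by 1.38 ± 0.18 in darkness (limma adjusted p = 7.33e-05). In light BIK1 was at 0.62 ± 0.18 (0.0318), a call lost without light amiR-SNF4 replicate 1 (0.100), 2 (0.0673) or 3 (0.0766) and without light wild-type replicate 1 (0.124) or 3 (0.0658), and with the replicate block (0.0576). The ubiquitin ligase gene PUB24, a brake on this pathway, rose by 1.19 ± 0.14 in darkness and 1.42 ± 0.14 in light. The related genes PUB22 and PUB23 rose by 1.25 ± 0.18 and 1.26 ± 0.16 in darkness and were at -0.35 ± 0.18 and 0.31 ± 0.16 in light. The 5 rises of this list in darkness were thus WRKY6, BIK1 and these PUB genes. Since a brake is among them, the counts are no measure of the activity of the pathway, which was not tested.

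In the salicylate and EDS1 list, all 4 measured of 21 listed genes rose in both conditions, with medians of 2.50 in darkness and 2.43 in light. Of all genes, 14.3% rose in darkness and 9.14% in light. The 4 listed genes include SAG101, a partner of EDS1 in immune signalling, at 3.70 ± 0.15 in darkness and 2.51 ± 0.15 in light. GRX480, a glutaredoxin gene, was at 2.68 ± 0.16 and 2.00 ± 0.16. UGT76B1, a glycosyltransferase gene, was at 2.32 ± 0.28 in darkness and 3.58 ± 0.28 in light.

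Root hair markers were read because RHS6 and RHS16 belong to the listed loci, and 2 of the 11 were measured. Their summed normalized intensity was 21.7 to 25.5 in dark amiR-SNF4 against 52.9 to 78.7 in dark wild type, and 64.7 to 83.0 in light amiR-SNF4 against 90.9 to 142 in light wild type. EXPA18, an expansin gene among them, fell by 1.12 ± 0.21 in darkness (limma adjusted p = 0.00101), and the other, EXPA7, was at -0.47 ± 0.21 there (0.117). Both were dim in dark amiR-SNF4, with means of 4.72 and 4.81. The dark value of EXPA18 was -1.98 with an added constant of 1 and -0.50 with 64, called with both. In light EXPA18 and EXPA7 were at -0.62 ± 0.21 and -0.37 ± 0.21 and were not called. The part of root hairs in the values of the kinase genes was not tested.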

How the data were processed

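The deposited table held 1 linear intensity per probe set and array. The submitters' processing notes name GCOS, Affymetrix's array software, without a version. Whether the authors scaled the deposited intensities is not given in the sources used here, and detection calls were not used. Control probe sets (64) were set aside. The other 22746 were quantile-normalized, 16 was added and log2 taken. Of these, 13513 named 1 gene in the platform annotation, 503 named several and 8730 were unnamed here. The brightest probe set of each gene was kept, which gave 13355 genes. Symbols and gene order came from the TAIR10.1 gene table.

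Groups and replicate numbers came from the titles. limma 3.58.1 in R 4.3.3 fitted all 12 arrays at once (lmFit, eBayes) for 5 contrasts, with Benjamini-Hochberg adjustment over all genes. The fit was tested on simulated data. The number of arrays, 3 per group, limits the precision. Arrays of a dark group scattered more (median SD over genes 0.238) than those of a light group (0.153). Since 1 spread per gene is used throughout, the errors are likely too small for dark and too large for light values.

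The members, gene lists and the rule for naming genes were chosen with earlier results of these data known. The rule took members with published names, the 8 largest called rises and falls of each genotype contrast, all called differences, the 5 largest called rises and falls of each light contrast and up to 3 called genes of each other list. It took AT1G51805, AT1G51820, AT1G51830 and AT1G51850 as named members; genes named beyond it were chosen after their values were seen. Alternatives covered normalization, the added constant, filters, probe set choice, the variance model, a replicate block and leaving out single arrays.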

Additional observations from a re-analysis of the deposited data

Results flagged for a closer look

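For 5 of 33 malectin-like LRR kinase genes (15.2%) the difference of the silencing effects in light and darkness was called in the main fit. Of all genes, 7.98% were called. The log2 difference, light minus darkness, was -1.18 for AT1G51830, 1.44 for AT1G51850, 1.34 for AT1G51860, -1.36 for AT2G28960 and 1.02 for AT5G59670. The first 3 lie in the same run of genes on chromosome 1. The call for AT1G51830 held in all 26 alternatives. The call was lost in 13 of 26 for AT2G28960, 10 of 26 for AT1G51860 and 1 of 26 for AT1G51850. For AT5G59670, near the floor in darkness, it was lost in 2 of 25. No test for a single outlying array was run within the groups, which have 3 arrays each.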

How the results depend on the processing

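For the genotype comparisons 27 alternatives were run, 12 of them leaving out 1 array each. Of 33 calls of single members over the 5 contrasts, 17 held in all alternatives and 16 were lost in at least 1. Among these AT1G05700, -0.54 for light against darkness in amiR-SNF4, changed direction to 0.24 with hybridization control scaling, which raises all light values. The number of members called was 4 in darkness, with 3 to 6 over all alternatives. In light it was 7, and moved to 4 without normalization and 11 (7 higher, 4 lower) with array weights. Without normalization 5.34% of all genes rose and 5.79% fell in light, against 9.14% and 9.94% in the main fit. The difference between both effects gave 5 members, 1 without normalization and 3 with a constant of 1. Without normalization 0.659% of all genes were higher and 1.42% lower by the difference, against 4.07% and 3.92% in the main fit. Light against darkness gave 12 in amiR-SNF4 and 7 without normalization, and 5 in wild type and 3 without normalization. The cause was not tested. Leaving out single arrays gave 3 to 6 in darkness, 4 to 7 in light, 3 to 6 for the difference, 8 to 13 for light against darkness in amiR-SNF4 and 4 to 8 in wild type.

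No label says that a replicate number marks a shared batch, so the numbers were not taken to pair the samples. Same-numbered arrays of different groups deviated from their group means with correlations from -0.33 to 0.20. With the replicate number as a block, 4 members were called in darkness, 6 in light, 5 for the difference, 12 for light against darkness in amiR-SNF4 and 5 in wild type. Leaving out the lowest-median array of each dark group, chosen after seeing the data, gave 6 in darkness, 8 in light and 5 for the difference. Without detection calls, signal over background was unknown, and dim genes depend most on the added constant.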
